A study of Mus musculus with 8 samples.

Results

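Levels of 8 genes, the Myc genes Myc and Mycn, the p53 pathway genes Trp53, Mdm2, Cdkn1a and Cdkn2a, and the D cyclins Ccnd1 and Ccnd2, were followed across the cell types of GL261 glioblastoma and of naive mouse brain. They were taken by gene symbol, and all 8 were among the 32502 genes listed over the 8 Drop-seq libraries of the series. In Drop-seq a cell and a barcoded bead share a droplet, and the bead captures messenger RNA at its 3′ end with unique molecular identifiers (UMIs), which are counted once each. All mice were C57BL/6 by the labels and C57BL/6N by the study's methods, and each library was from brain tissue of Irg1/Acod1 +/+ (WT) or Irg1/Acod1 -/- (KO) animals. Each genotype gave 1 naive library, whose label names 2 mice, and 3 tumour-bearing libraries of 1 mouse each. Tumour-bearing mice received 500 GL261 cells, a mouse glioma line of the same strain, and brains were taken at a tumour volume of 5 to 10 mm3 (early), 20 to 25 mm3 (intermediate) or 30 to 35 mm3 (late). The same line was implanted in both genotypes, so in the KO libraries the host and not the tumour cells lacked intact Acod1. By the study's own account the WT and KO animals were of opposite sex at the early and, in the other order, at the intermediate stage, and of the same sex at the late stage. Ages are not given in the sources used here. No group had a second library, so the spread reported here is that between libraries of different genotype or stage.

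The libraries held 2885345 to 9950713 UMIs, and 454 to 1000 cells per library passed the filters, 5698 in all, with median depths of 2597.5 to 5637.5 UMIs per cell. At most 2 cell barcodes were shared by any pair of libraries. Acod1, the targeted gene, gave 162, 115 and 38.1 CPM (UMIs of the gene per 1000000 UMIs of the summed cells) in the microglia-like cells and 160, 34.2 and 7.30 CPM in the macrophage-like cells of the WT early, intermediate and late libraries. In the libraries labelled KO it gave 0, 6.73 and 37.8 CPM and 63.7, 13.1 and 63.4 CPM in the same order, and it was at 0 in naive microglia-like cells of both labels. By the study's methods the targeted allele holds a cassette between exons, which need not remove the counted 3′ end, so these counts do not check the labels. Cells were clustered without the 8 genes and named from marker lists. Tumour cells numbered 3369, beside 452 macrophage-like cells, 381 microglia-like cells, 366 oligodendrocytes, 327 endothelial cells, 287 astrocytes, 183 lymphocytes, 62 oligodendrocyte precursor cells (OPCs) and smaller classes. Of the 7 tumour markers 5 were highest in the tumour cells, and Cd44 was higher in another class. The WT intermediate library was 926 tumour cells of 1000, so its other classes rested on few cells.

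Myc encodes a transcription factor that drives ribosome production, metabolism and cell growth, and Mycn is its paralogue of neural progenitors. The p53 protein, encoded by Trp53, is stabilised by DNA damage and oncogene signalling and induces genes of arrest, repair and apoptosis. Among them are Cdkn1a, whose product p21 inhibits cyclin-dependent kinases, and Mdm2, whose product marks p53 for degradation. Cdkn2a encodes p16Ink4a, an inhibitor of the kinases that D cyclins activate, and p19Arf, which restrains Mdm2, from separate starts that share a 3′ end, so 3′ counts cannot tell these transcripts apart. D cyclins activate Cdk4 and Cdk6, which phosphorylate the retinoblastoma protein and open the way to S phase. GL261 cells have been described as carrying a mutant Trp53, and UMI counts do not show which allele was transcribed.

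In GENCODE vM21 on GRCm38, Myc lies at chr15:61985391-61990374 on the plus strand, Mycn at chr12:12936093-12941914 on the minus strand and Trp53 at chr11:69580359-69591873 on the plus strand. Mdm2 lies at chr10:117688875-117710758 (minus), Cdkn1a at chr17:29090976-29100727 (plus) and Cdkn2a at chr4:89274471-89294653 (minus). Ccnd1 lies at chr7:144929931-144939925 (minus) and Ccnd2 at chr6:127125162-127152193 (minus). All 8 are protein-coding genes.

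RefSeq promoter windows of GRCm38.p6 were matched for 5 of the 8 genes. The upstream Cdkn1a window and the Mdm2 window are shown because both genes are direct p53 targets that took different courses in the results. In them the p53 decamer (the 10-base unit that p53 binding sites repeat) is in capitals. The windows of the 2 Cdkn2a starts are shown because the counts merge their transcripts. Each run reads 5′ to 3′ on the gene's strand and ends before the first annotated exonic base.
Cdkn1a, chr17:29090729-29090975, plus: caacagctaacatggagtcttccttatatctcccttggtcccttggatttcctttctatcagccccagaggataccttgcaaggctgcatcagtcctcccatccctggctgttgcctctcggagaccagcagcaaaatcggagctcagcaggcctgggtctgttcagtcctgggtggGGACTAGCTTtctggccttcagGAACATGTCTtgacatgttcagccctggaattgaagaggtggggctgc
Mdm2, chr10:117710759-117711008, minus: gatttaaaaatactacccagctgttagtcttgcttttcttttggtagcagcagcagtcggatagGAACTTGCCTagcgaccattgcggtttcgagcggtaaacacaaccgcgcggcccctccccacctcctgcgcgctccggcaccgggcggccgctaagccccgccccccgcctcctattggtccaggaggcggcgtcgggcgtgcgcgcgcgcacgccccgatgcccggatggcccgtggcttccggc
Cdkn2a, upstream start (p19Arf), chr4:89294654-89294869, minus: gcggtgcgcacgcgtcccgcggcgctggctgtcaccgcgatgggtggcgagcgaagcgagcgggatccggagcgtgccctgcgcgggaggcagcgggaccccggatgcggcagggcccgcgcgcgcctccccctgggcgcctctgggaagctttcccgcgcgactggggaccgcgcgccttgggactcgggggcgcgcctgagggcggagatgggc
Cdkn2a, downstream start (p16Ink4a), chr4:89282193-89282442, minus: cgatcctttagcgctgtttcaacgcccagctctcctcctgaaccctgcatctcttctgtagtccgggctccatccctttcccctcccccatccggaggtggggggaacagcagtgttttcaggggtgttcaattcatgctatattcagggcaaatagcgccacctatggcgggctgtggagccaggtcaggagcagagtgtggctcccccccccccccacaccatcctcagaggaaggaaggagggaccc
The Cdkn1a window shown held p53 decamers that start 73 and 51 bases before the upstream transcription start. A second Cdkn1a window, of a start further downstream (chr17:29093519-29093768), lies within annotated exons, is not shown and held no p53 decamer. The Mdm2 window held 1 that starts 186 bases before the transcription start, and the Trp53 window, not shown, held 1 at 75 bases. The windows of both Cdkn2a starts held none. A p53 decamer on either strand was found in 7.13% of 32851 promoter windows of 250 bases, and the Myc-binding E-box CACGTG, found in 6.02% of them, was in none of the 7 windows matched to these genes. A match to letters is a description and does not show binding.

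All levels are CPM of the summed cells of 1 class in 1 library, for sums of at least 5 cells. A change in a sum can come from fewer expressing cells or from less RNA per cell, and the sums do not tell these apart. The genes are counted from their 3′ ends with differing efficiency, so levels are compared between cells and not between genes.

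**Figure D1:**
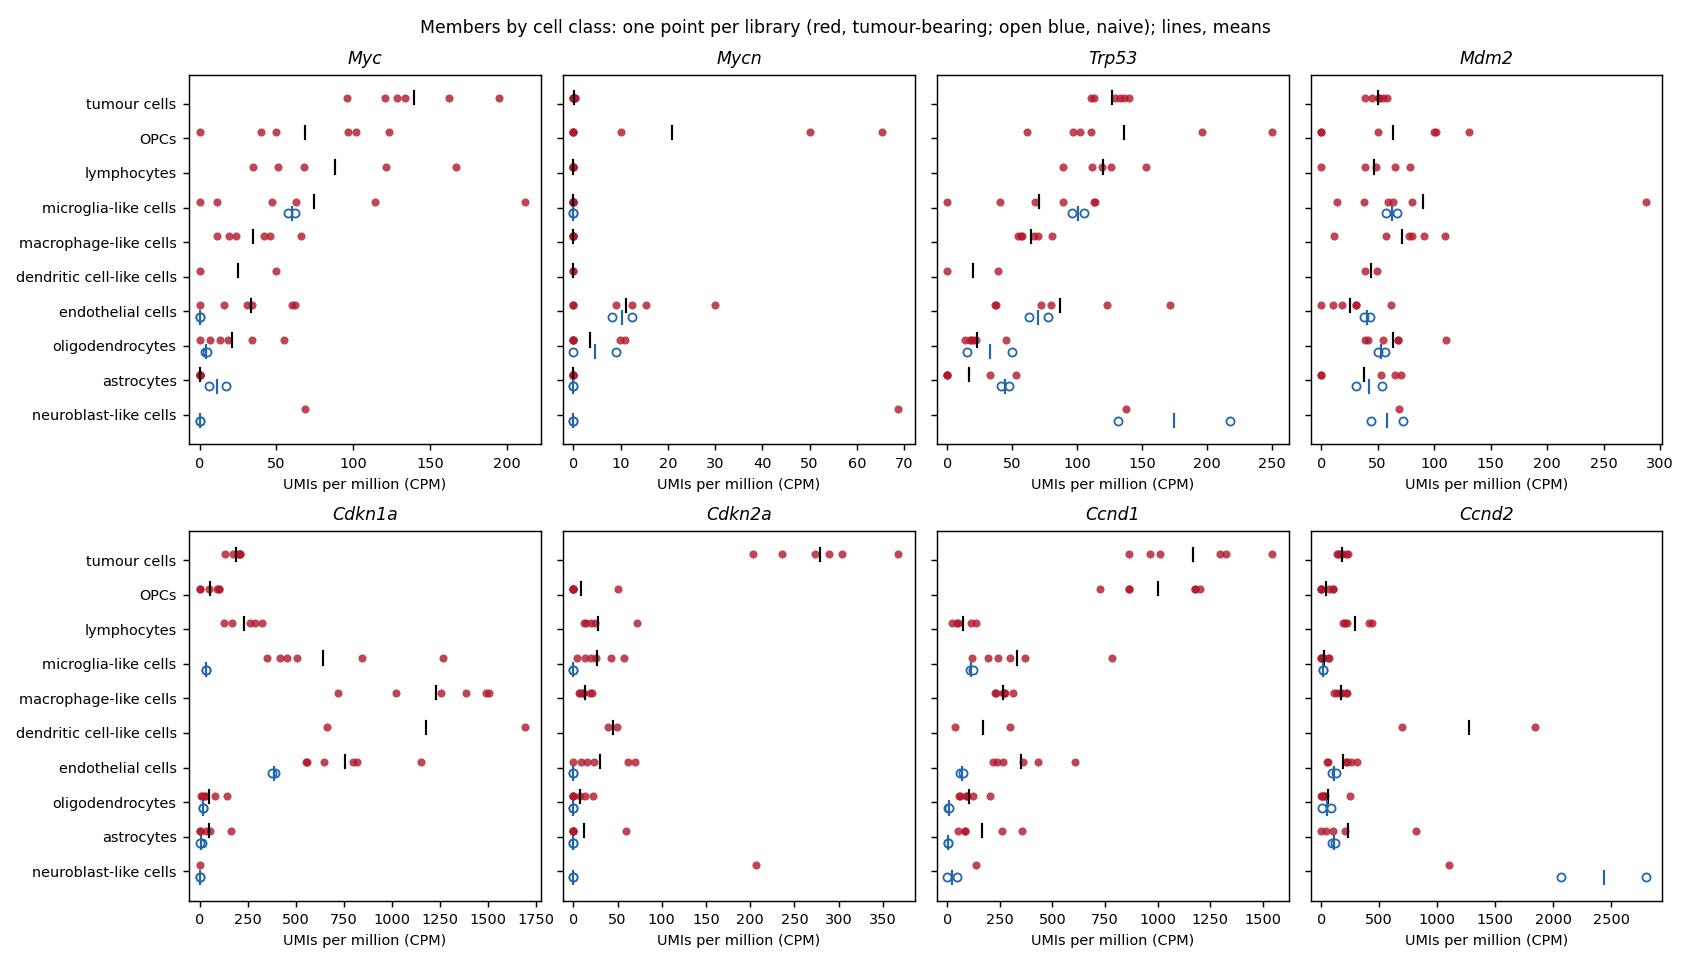
Levels (CPM) of the 8 genes by cell class, with 1 point for each library with at least 5 cells of that class (red, tumour-bearing; open blue, naive) and lines at the means. Cdkn2a lay at 203 CPM or above in the tumour cells of all 6 libraries and was at 0 in the naive classes. Among classes with at least 3 libraries, Cdkn1a had its highest mean in macrophage-like cells.

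Of the 7 genes tested, Myc, Trp53, Cdkn2a and Ccnd1 were higher and Mdm2 and Cdkn1a lower in tumour cells than in all other named cells of the same 6 libraries (edgeR, adjusted p under 0.05). Of all 13006 genes tested, 31.1% were called higher and 32.9% lower, so calls were common in this contrast. Mycn was too low to be tested. Against single classes, 4 members were called against microglia-like cells (44.9% of 9502 genes), 6 against macrophage-like cells (51.1%), 2 against lymphocytes (40.6%), 5 against endothelial cells (42.9%) and 5 against OPCs (36.8%). In these class contrasts the median log2 fold change of all genes was itself 0.19 to 0.46, and 0.42 to 0.75 with DESeq2 size factors, so small differences are to be read against those medians.

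Myc stood at 128, 195 and 162 CPM in the tumour cells of the WT early, intermediate and late libraries, and at 121, 96.1 and 133 CPM in those of the KO libraries. All other named cells of the same libraries lay between 17.1 and 52.2 CPM, with a median of 47.3, so the groups did not overlap. The tumour cells were 3.17-fold higher (log2 fold change 1.67, SE 0.19, adjusted p = 2.3e-05, higher in 6 of 6 libraries). Myc was also higher in tumour cells than in macrophage-like cells (34.6 ± 20.2 CPM, SD, n = 6, log2 fold change 1.86, adjusted p = 7.9e-07) and endothelial cells (33.8 ± 24.3 CPM, n = 6, log2 fold change 1.92, adjusted p = 3.7e-05). Lymphocytes (88.3 ± 54.7 CPM, n = 5) and microglia-like cells (74.5 ± 78.5 CPM, n = 6) came closest, and neither passed the test (adjusted p = 0.076 and 0.063), although 5 and 6 of 15 alternative settings gave a call. In microglia-like cells the 6 libraries ran from 0 to 211 CPM, whereas both naive libraries lay near 60 (62.4 and 57.4 CPM).

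Mycn was nearly absent from the tumour cells, with 4 UMIs in 29107733, or 0.137 CPM. The remaining named cells of the tumour-bearing libraries held 16 Mycn UMIs in 5810048 and the naive cells 12 in 3129995. Endothelial cells held 9 of the former and 7 of the latter, OPCs 3 and naive neuron-like cells 3. Myc showed the reverse in naive endothelial cells, where 0 UMIs in 689709 were counted.

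Trp53 was the least variable of the tested members between the tumour cells of the libraries relative to its mean, at 133, 111 and 129 CPM in WT and 140, 113 and 136 CPM in KO. Other named cells lay between 56.3 and 82.2 CPM, below all 6 tumour values, and the difference was 1.70-fold (log2 fold change 0.77, SE 0.12, adjusted p = 0.00015). Microglia-like cells held 70.5 ± 44.4 CPM (n = 6), below the tumour cells of the same library in 6 of 6 (log2 fold change of tumour cells 0.61, adjusted p = 0.061, called under 9 of 15 alternatives). OPCs (136 ± 71.4 CPM, n = 6) and lymphocytes (120 ± 23.4 CPM, n = 5) did not differ from tumour cells beyond their spread (adjusted p = 0.23 and 0.87). Macrophage-like cells were lower at 64.2 ± 9.92 CPM (n = 6, log2 fold change of tumour cells 0.66, adjusted p = 0.0093). Endothelial cells were lower at 86.8 ± 52.5 CPM (n = 6, adjusted p = 0.020), a call lost without the KO early, KO intermediate, WT early or WT late library (adjusted p = 0.053 to 0.075). Oligodendrocytes (22.7 ± 11.4 CPM, n = 6) and astrocytes (17.04 ± 24.4 CPM, n = 5) had the lowest levels among the larger classes.

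Mdm2, at once a p53 target and its main brake, was at 55.0, 58.4 and 51.6 CPM in WT and 38.9, 51.0 and 44.9 CPM in KO tumour cells, against 45.6 to 70.3 CPM in other named cells. The groups overlapped, with tumour cells lower in 5 of 6 libraries (log2 fold change -0.49, SE 0.15, adjusted p = 0.016). That call was lost without the KO early, KO late or WT early library (adjusted p = 0.066, 0.058 and 0.054), and without a filter on low counts the log2 fold change was -0.23 (adjusted p = 0.32). Macrophage-like cells had more Mdm2 than tumour cells (71.3 ± 33.9 CPM, n = 6, log2 fold change of tumour cells -0.94, adjusted p = 0.0025). Endothelial cells had 25.3 ± 21.6 CPM (n = 6, log2 fold change of tumour cells 0.90, adjusted p = 0.086, called under 8 of 15 alternatives). In naive brain the highest mean levels were those of ciliated ependymal-like cells (140 ± 10.2 CPM, n = 2) and choroid plexus epithelial-like cells (94.2 ± 36.2 CPM, n = 2).

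Cdkn1a followed an order unlike that of Trp53. Tumour cells held 133, 207 and 210 CPM in WT and 204, 173 and 212 CPM in KO, while all other named cells of these libraries held 386 to 957 CPM. The groups did not overlap, and tumour cells were 3.70-fold lower (log2 fold change -1.89, SE 0.13, adjusted p = 6.4e-07, lower in 6 of 6 libraries).

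Macrophage-like cells carried the most Cdkn1a among classes with at least 3 libraries, at 722, 1506 and 1490 CPM in WT and 1387, 1255 and 1020 CPM in KO. Their lowest library lay above the highest tumour value (log2 fold change of tumour cells -2.99, SE 0.27, adjusted p = 6.1e-15). Endothelial cells came next at 756 ± 224 CPM (n = 6, tumour cells 3.99-fold lower, adjusted p = 8.9e-09) and microglia-like cells at 641 ± 351 CPM (n = 6, log2 fold change -1.76, adjusted p = 3.0e-07). Macrophage-like cells exceeded microglia-like cells in 6 of 6 libraries (log2 fold change 1.23, SE 0.28, adjusted p = 0.00083), 1 of 2 members called in that contrast, in which 11.9% of genes were called. After each cell was thinned to 2000 UMIs, a Cdkn1a UMI was found in 78.4% of macrophage-like and 70.2% of tumour-bearing endothelial cells, against 25.1% of tumour cells and 7.84% of oligodendrocytes (86.2%, 79.1%, 49.9% and 8.97% before thinning). The median depths of these classes were 3281, 3282, 4886 and 2734 UMIs. OPCs were below tumour cells (56.8 ± 48.1 CPM, n = 6, log2 fold change of tumour cells 1.82, adjusted p = 0.0014). With at least 10 cells per sum only the OPCs of the WT early library remained, and the log2 fold change was 0.57.

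Cdkn2a had the largest fold difference of the 7 genes tested between tumour and other named cells. It stood at 274, 203 and 236 CPM in WT and 304, 368 and 289 CPM in KO tumour cells, and at 10.6 to 29.4 CPM in the other named cells. The difference was 14.9-fold (log2 fold change 3.90, SE 0.22, adjusted p = 2.2e-07). Against microglia-like cells, macrophage-like cells, lymphocytes and endothelial cells the log2 fold changes ran from 3.15 to 4.10, all called. That against OPCs was called too, but OPCs held 5 Cdkn2a UMIs in the WT early library and 0 in the other 5, and its log2 fold change ran from 2.24 to 10.54 over the alternatives. In naive brain, 0 Cdkn2a UMIs were counted among 3129995 in 903 named cells, which allows up to 0.958 CPM.

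The low Cdkn2a level outside tumour cells was set beside the level that tumour RNA carried into other droplets would give. The source of that level was not tested. Col9a1, a collagen gene used as a tumour marker, was found in the other classes at 0 to 19.3% of its tumour-cell level. At that share, tumour Cdkn2a would reach a median of 13.8 CPM in macrophage-like, 12.3 CPM in microglia-like and 7.98 CPM in endothelial cells, where the measured medians were 10.9, 22.7 and 19.2 CPM. The measured level lay above the carried one in 4 of 6 libraries in each of these classes, and whether those cells transcribed the gene was not tested. The tumour markers Dppa2, Etv2 and Gm14139 were at 0 in every other class of the tumour-bearing libraries. They were at only 8.31 to 10.4 CPM in tumour cells, so at the Col9a1 share few or no UMIs were to be found. These zeros therefore cannot tell carried tumour RNA from none.

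**Figure D2:**
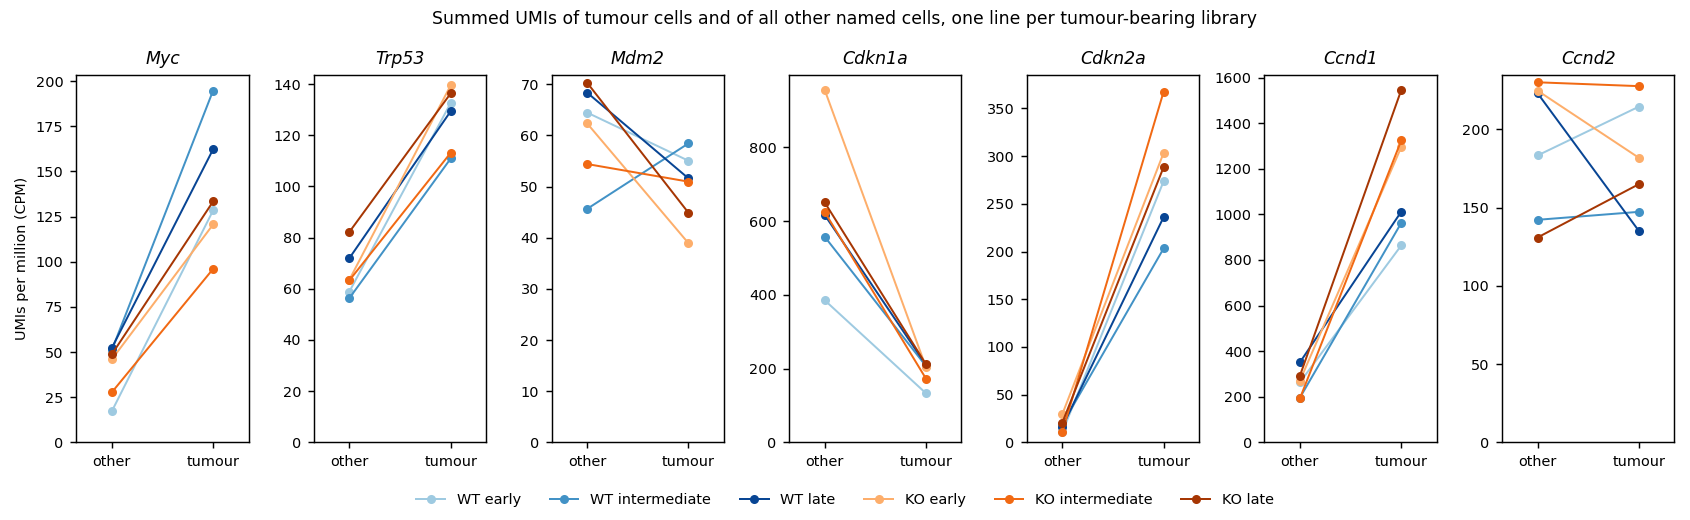
CPM of the 7 tested genes in the summed tumour cells and in all other named cells, with 1 line for each of the 6 tumour-bearing libraries. Lines climb for Myc, Trp53, Cdkn2a and Ccnd1 and drop for Cdkn1a in 6 of 6 libraries, whereas those of Ccnd2 cross.

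Ccnd1, the cyclin D gene that growth-factor signalling induces, was at 864, 963 and 1012 CPM in WT and 1295, 1324 and 1546 CPM in KO tumour cells. Other named cells lay between 193 and 351 CPM, without overlap, and the difference was 3.95-fold (log2 fold change 1.98, SE 0.15, adjusted p = 1.3e-06). OPCs, the progenitors of oligodendrocytes, lay in the range of the tumour cells or just below it, at 1178, 865 and 1201 CPM in WT and 1176, 725 and 864 CPM in KO. Tumour cells were called higher than OPCs (log2 fold change 0.80, SE 0.28, adjusted p = 0.018) although the values overlapped. Only 5 to 24 OPCs made up each sum. The call was lost without the KO intermediate or KO late library (adjusted p = 0.096 and 0.073) and with doublets removed (adjusted p = 0.051). With at least 10 cells per sum only the OPCs of the WT early library remained, and the log2 fold change was -0.14. Lymphocytes were lowest of the immune classes at 74.1 ± 47.7 CPM (n = 5, log2 fold change of tumour cells 4.12, adjusted p = 1.7e-15).

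Ccnd2, its paralogue, had another distribution. In tumour cells it was at 215, 147 and 135 CPM in WT and 182, 228 and 165 CPM in KO, in the range of the other named cells (131 to 230 CPM, log2 fold change -0.25, SE 0.13, adjusted p = 0.12). Neuroblast-like cells of the naive libraries held 2801 and 2067 CPM, and the dendritic cell-like cells of the 2 libraries with at least 5 such cells held 1840 and 700.3 CPM. Lymphocytes held 294 ± 120 CPM (n = 5), above the tumour cells of the same library in 5 of 5, a difference that did not pass the test (adjusted p = 0.082).

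Among myeloid cells Ccnd2 differed between the classes. Macrophage-like cells held 211, 171 and 139 CPM in WT and 226, 170 and 110 CPM in KO, whereas microglia-like cells held 0 to 63.1 CPM, without overlap. The microglia-like sums held only 23 Ccnd2 UMIs in all, 16 of them in the WT early library. The count of 0 in WT intermediate came from 5 cells and allows up to 173 CPM. Macrophage-like cells were 5.98-fold higher (log2 fold change 2.58, SE 0.54, adjusted p = 0.00027), and tumour cells were 5.08-fold higher than microglia-like cells (log2 fold change 2.35, adjusted p = 0.00016). Against endothelial cells the log2 fold change of Ccnd2 was -0.02 (adjusted p = 0.97), but 1.78 (adjusted p = 0.0068) once cells with more mural-cell than endothelial marker UMIs were left out, and 1.50 (adjusted p = 0.0031) with doublets removed. Those cells were 40 of 129 in the tumour-bearing and 20 of 198 in the naive endothelial class, and without them Ccnd2 was at 57.3 ± 14.5 CPM in tumour-bearing libraries (n = 5).

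Of 28 p53 targets listed, Cdkn1a and Mdm2 included, 23 were tested between tumour cells and other named cells, where Trp53 itself was higher in tumour cells. Of these, 13 were lower and 5 higher in the tumour cells, where 32.9% of all genes were called lower and 31.1% higher. The median log2 fold change was -0.49 beside 0.02 for all genes. The lower ones included Pmaip1 (log2 fold change -5.42, adjusted p = 1.8e-06), which encodes the apoptosis protein Noxa, and Btg2 (-4.57, adjusted p = 2.1e-07), an antiproliferative gene. Ephx1 (-3.29, adjusted p = 0.00037), an epoxide hydrolase gene, and Ccng1 (-1.93, adjusted p = 6.3e-07), which encodes cyclin G1, were lower as well. The 5 higher ones were Bbc3 (1.16), which encodes the apoptosis protein Puma, the stress gene Sesn2 (1.04), Gdf15 (0.79), Phlda3 (0.75) and Gadd45a (0.51), all with adjusted p under 0.05. These are named because they were the only 5 called higher, after their values were seen. Many of the targets are known to respond to other regulators too.

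**Figure D3:**
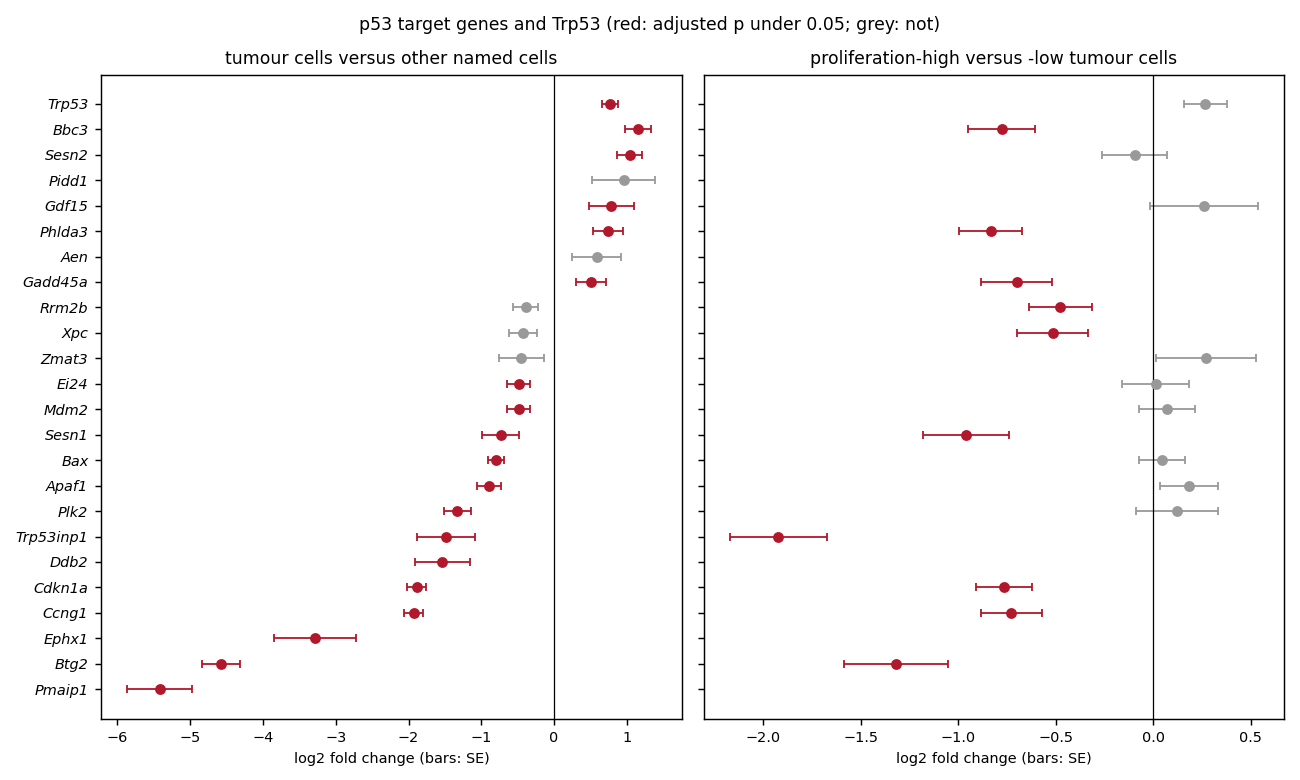
Log2 fold changes (points) with standard errors (bars) of Trp53 and the tested p53 targets, between tumour cells and other named cells (left) and between proliferation-high and proliferation-low tumour cells (right), with red for an adjusted p under 0.05. On the left Trp53 stands at 0.77 and Cdkn1a at -1.89, and on the right none of the targets is called higher.

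Against single classes the count of p53 targets called lower in tumour cells was 7 of 18 for microglia-like cells, 8 for macrophage-like cells, 5 for lymphocytes, 11 for endothelial cells and 1 for OPCs, and 2, 1, 5, 1 and 3 were called higher. The calls in either direction were thus 9, 9, 10, 12 and 4 of 18, beside 44.9%, 51.1%, 40.6%, 42.9% and 36.8% of all genes in these contrasts. Phlda3, which encodes a repressor of Akt signalling, was higher in tumour cells than in microglia-like (log2 fold change 3.11), macrophage-like (3.78) and lymphoid cells (4.84). Plk2, a stress-induced kinase gene, was lower than in endothelial cells (-3.10, adjusted p = 6.7e-14). Among 9 tested of 11 p53 regulators, tumour cells had 3 higher and 3 lower, near the shares of all genes (31.1% and 32.9%). The checkpoint kinase genes Chek1 (2.07, adjusted p = 3.6e-06) and Atm (1.18, adjusted p = 0.00030) were higher, and Mdm4 (-1.07, adjusted p = 4.5e-05), which encodes a second inhibitor of p53, and the kinase gene Hipk2 (-0.96, adjusted p = 0.00043) were lower.

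The calls among the listed Myc targets lay in 1 direction. Of 22 Myc targets of ribosome production and metabolism, all tested, 21 were higher and 0 lower in tumour cells. Their median log2 fold change was 1.17 beside 0.02 for all genes, of which 31.1% were called higher. The list was chosen with earlier results of these data known, so this count is a description. Examples are Srm (2.39, adjusted p = 3.4e-06), which encodes spermidine synthase, the ribosome assembly gene Ppan (2.21, adjusted p = 7.8e-07), the mitochondrial chaperone gene Hspd1 (2.13, adjusted p = 1.2e-07) and the nucleolar gene Npm1 (1.88, adjusted p = 3.5e-07). Proliferation genes were higher too, with 33 of 36 called, and their part in the Myc target levels was not tested. In the Myc network, 4 of 8 tested genes were lower and 1 was higher. Mxd1 (-4.14, adjusted p = 8.8e-08) and Mxi1 (-1.97, adjusted p = 6.8e-07), which encode proteins that compete with Myc for their partner Max, were lower, and Mxd4, of the same family, was higher (0.49, adjusted p = 0.012).

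Of 17 genes around D cyclins and the retinoblastoma protein, the tumour cells had 5 higher and 5 lower, with a median log2 fold change of 0.00, and these counts did not exceed the shares of all genes (31.1% and 32.9%). The third D cyclin, Ccnd3 (2.18, adjusted p = 1.7e-06), and Cdk4 (1.22, adjusted p = 2.6e-06), the kinase gene, were higher. Cdkn1c (-2.44, adjusted p = 0.00018), a kinase inhibitor gene, and Rbl2 (-1.25, adjusted p = 8.8e-05), a relative of the retinoblastoma gene, were lower.

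Tumour cells were then divided within each library by a proliferation score that used none of the 8 genes, from cells thinned to 2000 UMIs, and the 53 to 231 cells of the highest and of the lowest of 4 equal groups were summed from their full counts (proliferation-high and proliferation-low cells). The 0 to 122 tumour cells per library with under 2000 UMIs were left out. Of the 7 members tested, Ccnd1 was higher and Cdkn1a, Ccnd2 and Myc lower in proliferation-high cells, where 15.7% of 9854 genes were called higher and 18% lower. Median depth was 5436 to 10401 UMIs per cell in the high and 4454.5 to 7638 in the low groups, and its part in these differences was not tested beyond the thinning.

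Cdkn1a, whose product halts the cycle, stood at 125, 292 and 293 CPM in the low groups of WT and 252, 238 and 356 CPM in those of KO. In the high groups it stood at 137, 152 and 158 CPM and at 245, 110 and 139 CPM, lower in 5 of 6 libraries and with overlap. The log2 fold change was -0.77 (SE 0.14, adjusted p = 0.00043), and it passed the test in all 14 alternatives run. In the WT early library the order was the opposite, by a small margin.

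Ccnd2 was at 174 to 280 CPM in the low groups (median 239) and 104 to 224 CPM in the high groups (median 152), lower in 6 of 6 libraries (log2 fold change -0.58, SE 0.11, adjusted p = 0.00041, past the test in all 14 alternatives). Ccnd1 moved the other way, from 708 to 1265 CPM (median 1041) to 983 to 1610 CPM (median 1213), higher in 5 of 6 libraries (log2 fold change 0.29, SE 0.10, adjusted p = 0.029). Myc was at 120 to 216 CPM (median 157) in the low and 71.6 to 187 CPM (median 131) in the high groups, lower in 5 of 6 (log2 fold change -0.40, SE 0.14, adjusted p = 0.029). The calls of Ccnd1 and Myc were lost with DESeq2 (adjusted p = 0.079 and 0.084), and that of Myc with doublets removed (adjusted p = 0.12). Ccnd1 lost its call with another tSNE seed, Leiden clustering or summed thinned cells (adjusted p = 0.14, 0.062 and 0.13). Ccnd1 was also lost without the KO intermediate, KO late or WT early library (adjusted p = 0.13, 0.063 and 0.066) and Myc without the KO early, KO intermediate or KO late library (adjusted p = 0.14, 0.085 and 0.054).

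Trp53 (log2 fold change 0.27, SE 0.11, adjusted p = 0.077), Cdkn2a (-0.13, SE 0.09, adjusted p = 0.26) and Mdm2 (0.07, SE 0.14, adjusted p = 0.75) did not pass the test. Trp53 was called under 5 of 14 alternatives, among them without the KO late library (0.37, adjusted p = 0.023).

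**Figure D4:**
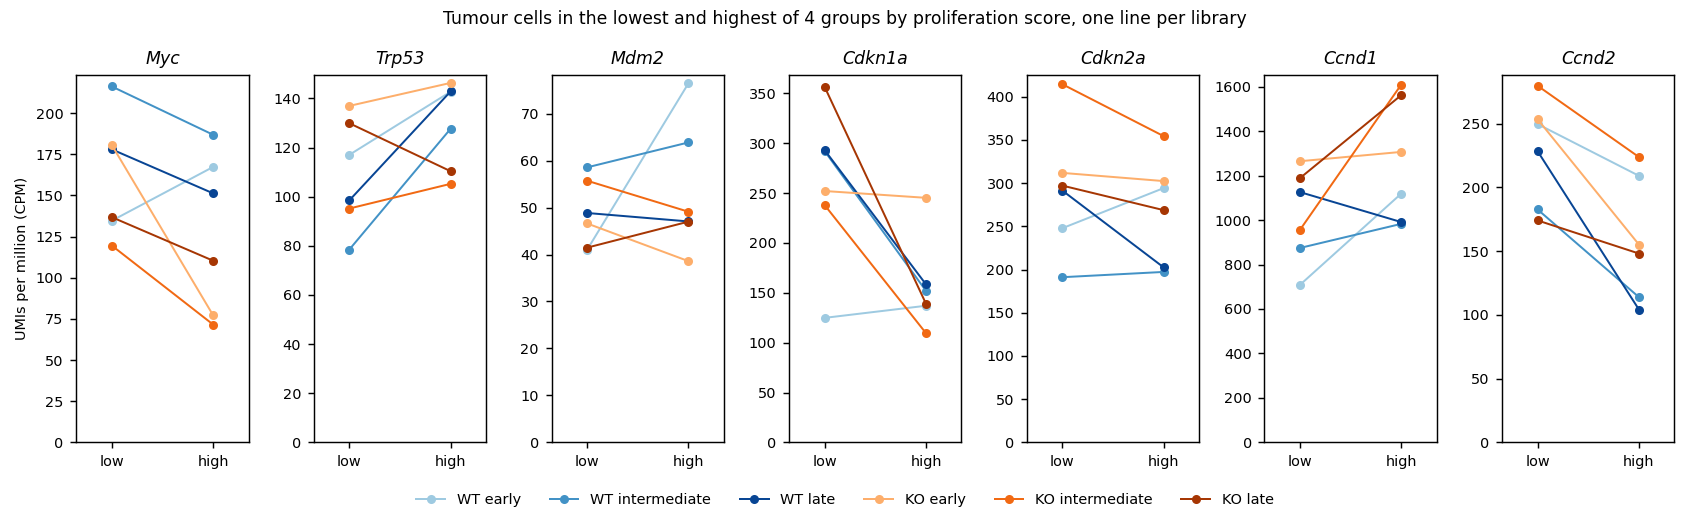
CPM of the 7 tested genes in the lowest and highest of 4 groups of tumour cells by proliferation score, with 1 line for each tumour-bearing library. Ccnd2 drops in 6 of 6 libraries and Cdkn1a in 5 of 6, and the lines of Mdm2 run in both directions.

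Of the 18 p53 targets tested in this contrast, 10 were lower and 0 higher in proliferation-high cells. Of all genes 18% were called lower and 15.7% higher. The median log2 fold change of the targets was -0.50 beside -0.04 for all genes. Trp53inp1 (-1.92, adjusted p = 8.3e-06), a stress-response gene, Sesn1 (-0.96, adjusted p = 0.0026), Phlda3 (-0.83, adjusted p = 0.00064) and Ccng1 (-0.73, adjusted p = 0.0014) were lower in every library. Of the p53 regulators 3 of 9 were higher, among them Chek1 (2.09, adjusted p = 1.5e-05) and Chek2 (1.51, adjusted p = 0.00032), both kinase genes of the DNA damage checkpoint.

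The call of Myc itself as lower passed the test in only 9 of 14 alternatives. Of 21 Myc targets, 14 were higher and 0 lower, with a median log2 fold change of 0.42, where 15.7% of all genes were called higher and 18% lower. Cad (0.88, adjusted p = 0.0020), an enzyme gene of pyrimidine synthesis, and Srm (0.68, adjusted p = 3.9e-06) were among them, as were the ribosome assembly genes Bop1 (0.60, adjusted p = 0.0058) and Nop56 (0.59, adjusted p = 7.2e-05). In the Myc network 1 gene was higher and 3 lower of 7 tested. Mxd3 was higher (4.48, adjusted p = 4.6e-07), and Mxd4 (-1.60, adjusted p = 7.4e-11) and Mnt (-0.93, adjusted p = 0.012) were lower.

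Of 15 genes around D cyclins, 9 were higher and 2 lower in proliferation-high cells, with a median of 0.59. Of all genes 15.7% were called higher and 18% lower. Rbl1 (2.21, adjusted p = 7.1e-07) and the cyclin E gene Ccne2 (1.44, adjusted p = 0.00026) were higher, as were the inhibitor genes Cdkn2d (1.43, adjusted p = 9.1e-08) and Cdkn2c (1.37, adjusted p = 2.9e-05).

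Cells present in both conditions were compared between the 6 tumour-bearing and the 2 naive libraries. Members called were 2 of 4 tested in microglia-like cells, where 17.3% of 3117 genes were called, 1 of 4 in endothelial cells (7.08%) and 1 of 1 in oligodendrocytes (2.2%). No member passed the filter on low counts in astrocytes, where 1.32% of 607 genes were called. Cdkn1a in microglia-like cells and Ccnd1 in endothelial cells and oligodendrocytes passed that filter only through the tumour-bearing sums. Any call of theirs thus had to point to higher levels there, and the counts of members called are no measure of the members. Myc in microglia-like cells and Trp53 in endothelial cells passed in the same way, and Ccnd2 in endothelial cells needed a tumour-bearing sum. Myc, Trp53 and Ccnd2 were not called there.

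The largest of these differences was that of Cdkn1a in microglia-like cells. The naive libraries held 33.6 (WT) and 31.9 (KO) CPM, and the tumour-bearing libraries 417, 1266 and 508 CPM (WT early, intermediate and late) and 846, 458 and 353 CPM (KO). The groups did not overlap, and the tumour-bearing cells were 17.3-fold higher (log2 fold change 4.11, SE 0.52, adjusted p = 5.3e-05). The call held in all 17 alternatives run, with log2 fold changes of 3.96 to 4.30. Cdkn1a passed the filter on low counts only through the tumour-bearing sums, so under that filter the call could only point upward. A Cdkn1a UMI was found in 32.7% of tumour-bearing and 3.25% of naive microglia-like cells thinned to 2000 UMIs (46.3% and 4.37% before thinning, at median depths of 2981 and 2323 UMIs).

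The 2 conditions were held by different clusters of the microglia-like class, 1 with 165 of its 170 cells from tumour-bearing libraries and 1 with 201 of its 211 cells from naive libraries. The summed level of the 12 macrophage markers in microglia-like cells was 2245 to 6504 CPM in tumour-bearing and 667 to 749 CPM in naive libraries, against 23342 to 33999 CPM in macrophage-like cells. Arg1, the macrophage marker gene, was at 0 in 5 of the 6 tumour-bearing sums. In KO early, the exception, its share of the macrophage-like level would carry 4.18 CPM of Cdkn1a, beside the 846 CPM measured. By the share of the whole marker list, 8.03% to 19.1%, carried Cdkn1a would be 81.9 to 227 CPM per library. The measured level lay above that in 6 of 6, although naive microglia-like cells hold part of that list themselves. RNA carried from other classes was left out of these shares, and the source of the measured Cdkn1a was not tested.

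Ccnd1 in microglia-like cells was at 106 and 124 CPM in the naive and 115 to 782 CPM (median 269) in the tumour-bearing libraries, with overlap (log2 fold change 1.47, SE 0.41, adjusted p = 0.020). The call was lost without either naive library (adjusted p = 0.50 without KO naive and 0.081 without WT naive). Myc (log2 fold change 0.17, SE 0.71, adjusted p = 0.90) and Trp53 (-0.47, SE 0.43, adjusted p = 0.50) did not pass the test there. Pmaip1 (1.99, adjusted p = 0.027), Mxd1 (2.50, adjusted p = 0.0097) and the Myc targets Nme1 (1.93, adjusted p = 0.0050), a nucleoside diphosphate kinase gene, Ldha (1.60, adjusted p = 0.0060), the lactate dehydrogenase gene, Ncl (1.30, adjusted p = 0.010) and Npm1 (1.30, adjusted p = 0.013) were higher in tumour-bearing microglia-like cells. They were among 2 of 4 p53 targets (Cdkn1a is the other), 1 of 4 Myc network genes and 4 of 12 Myc targets called higher, with 0 called lower. Of all genes 17.3% were called in either direction. Whether these genes passed the filter on low counts only through the tumour-bearing sums, as Cdkn1a did, was not tested.

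In endothelial cells Ccnd1 was at 61.8 and 76.5 CPM in the naive libraries and at 607, 216 and 430 CPM in WT and 359, 237 and 265 CPM in KO tumour-bearing libraries. The groups did not overlap and the difference was 5.12-fold (log2 fold change 2.36, SE 0.45, adjusted p = 0.014). The call was lost without KO naive or WT naive, and under the filter on low counts it could only point upward. Cdkn1a was at 392 and 380 CPM in the naive and 555 to 1150 CPM in the tumour-bearing libraries, without overlap, but did not pass the test (log2 fold change 0.98, SE 0.37, adjusted p = 0.12). The 10 mural-cell markers summed to 2398 and 4414 CPM in the naive and 4961 to 22150 CPM in the tumour-bearing endothelial class. Without the cells richer in mural than endothelial marker UMIs, Ccnd1 stood at 377 ± 245 CPM (n = 5) against 69.7 ± 10.4 CPM (n = 2), and Cdkn1a at 784 ± 294 against 423 ± 9.37 CPM.

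In oligodendrocytes Ccnd1 was at 3.77 and 9.11 CPM (1 and 2 UMIs) in the naive libraries. The tumour-bearing libraries held 62.2, 55.1 and 92.1 CPM in WT and 204, 88.0 and 122 CPM in KO (log2 fold change 3.84, SE 0.70, adjusted p = 0.0094). The call was lost without KO naive, and under the filter on low counts it could only point upward. At the Col9a1 share, tumour RNA would give 19.4 to 250 CPM of Ccnd1 in these sums, and the measured level lay above that in 4 of 6 libraries. In microglia-like and endothelial cells it lay above in 6 of 6, where the carried level was 16.6 to 194 and 21.4 to 96.1 CPM. Naive microglia-like cells already held 106 and 124 CPM and naive endothelial cells 61.8 and 76.5 CPM. The comparison leaves these naive levels out, so whether the rise exceeded carried RNA was not tested. Astrocytes held 3.38 and 3.17 CPM in the naive and 52.6 to 354 CPM in the tumour-bearing libraries, and were tested only without the filter. Their carried level was put at 0 in WT early and KO early, where no Col9a1 UMI was seen, although the 7 tumour markers summed to 14.1 and 383 CPM there, and of the other 3 libraries 1 lay above it (WT late, 260 against 60.5 CPM).

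**Figure D5:**
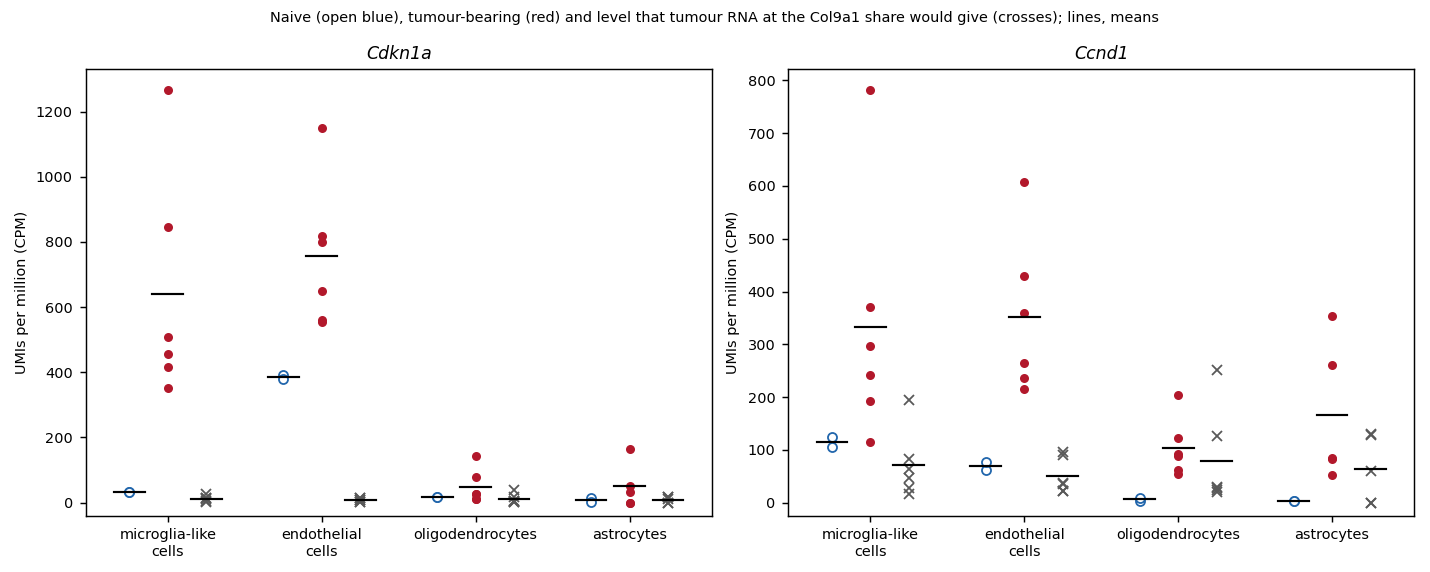
CPM of Cdkn1a and Ccnd1 in naive (open blue) and tumour-bearing (red) libraries by class, with lines at the means, and the level that tumour RNA would give at the Col9a1 share (crosses). Cdkn1a in tumour-bearing microglia-like cells lies between 353 and 1266 CPM, above both naive libraries, while crosses reach the measured Ccnd1 in oligodendrocytes and astrocytes.

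Between KO and WT tumour cells, 0 of 7 members and 0% of 13670 genes were called by edgeR (855 genes at an unadjusted p under 0.05, and 67 called by DESeq2). Ccnd1 was at 1388 ± 137 CPM in KO against 946 ± 75.5 CPM in WT (n = 3 each, log2 fold change 0.59, SE 0.17, adjusted p = 0.61). Cdkn2a was at 320 ± 42.0 against 238 ± 35.3 CPM (log2 fold change 0.47, SE 0.20, adjusted p = 0.79), and Myc at 117 ± 18.98 against 162 ± 33.2 CPM (-0.43, SE 0.21, adjusted p = 0.87). With 1 library per genotype and stage, host genotype and the single mouse cannot be told apart. Between late and early tumours, 0 of 7 members and 0% of genes were called (993 at an unadjusted p under 0.05, and 20 by DESeq2). Ccnd2 had the largest difference by size, at 165 and 135 CPM in the late and 182 and 215 CPM in the early libraries (log2 fold change -0.47, SE 0.25, adjusted p = 0.74), and Trp53 differed by -0.09 (SE 0.18, adjusted p = 0.95).

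Over 51 class sums with at least 10 cells, the genes whose log2(CPM + 10) ran most like that of each member were named, among 4275 genes that averaged 50 CPM or more. The sums share libraries and depth, and most are of few classes, so the correlations are descriptions. For Myc these were C1qbp (r = 0.78), Ddx21 (0.75) and Gm18913 (0.74), for Trp53 Srsf7 (0.80), Tubb5 (0.79) and Becn1 (0.78), and for Cdkn1a Sp100 (0.86), Slfn5 (0.83) and Gpx1 (0.83). Cdkn2a ran most like Rhox5 (0.87), Gm10036 (0.86) and Col9a2 (0.86), and Ccnd1 like Socs3 (0.83), Col11a1 (0.81) and Eif4ebp1 (0.80). The closest genes were less alike for Ccnd2, with Diaph1 (0.70), Sh3bgrl (0.62) and Sf3b6 (0.62), and for Mdm2, with Frg1, Lamtor4 and mt-Nd6 (0.61 each).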

How the data were processed

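The authors converted the sequencer output with bcl2fastq 2.0, aligned it with STAR to GRCm38/mm10 (per the labels) and ran the Drop-seq pipeline. Each deposited table gives counts of UMIs by gene (rows) and barcode (columns), not normalized, for 3000 barcodes per library. The STAR version and the annotation are not given in the sources used here. Filters were the 1000 deepest barcodes per library, genes seen in 30 or more cells and cells with 1000 or more genes, which left 18473 genes. Clustering used log2(CPM + 1), 50 principal components, tSNE with perplexity 50 (Rtsne 0.17) and HDBSCAN with a minimum cluster size of 19 (scikit-learn 1.9.0), leaving out the 8 genes and the pathway lists. Unassigned cells took the majority of their 15 nearest neighbours, and a mixed microglia and macrophage cluster was divided by Leiden clustering (leidenalg 0.10.2). Cell names were rebuilt here and can differ from those of the study. A cluster of 32 cells was left unnamed by a rule set after the data were seen. Doublets stayed in, and were removed as an alternative (Scrublet in scanpy 1.11.5, or the top 5% by score where it marked under 0.5%).

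UMIs were summed per library and class and tested with edgeR 4.0.16 (R 4.3.3, TMM, filterByExpr, quasi-likelihood, Benjamini-Hochberg over all genes tested), with library as a block within libraries, genotype as covariate against naive libraries and stage as covariate between genotypes. DESeq2 1.42.0 was an alternative. The tests were checked on simulated counts. p-values measure the spread between libraries, each of 1 mouse or 1 pool. A limit from a count of 0 is 3 counts over the group and covers counting error only, as do shares of cells. The members and gene lists were chosen with earlier results of these data known. Named beside the members were up to 4 genes per list and comparison, namely the called genes of largest change with 1 direction over all libraries or pairs, and for each member with at least 300 UMIs the 3 most alike genes. Alternatives were DESeq2, its size factors, no filter on low counts, clustering with all genes, another tSNE seed, Leiden clustering, doublet removal, at least 10 cells per sum, at least 500 genes per cell, fits without the block or covariate, endothelial sums without mural-rich cells, proliferation groups summed from thinned cells, and leaving out each library.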

Additional observations from a re-analysis of the deposited data

Results flagged for a closer look

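Among 33 sets of levels of a member in a class with 4 to 10 libraries and at least 30 UMIs, 3 held a library far from the others of its class, and chance alone flags about 1 in 20 sets. Mdm2 stood at 287.8 CPM in the microglia-like cells of the WT intermediate library, where 5 cells gave 5 UMIs, against 14.1 to 80.7 CPM in the other 5 libraries. Ccnd2 stood at 813.9 CPM in the astrocytes of the WT late library (13 cells, 25 UMIs), against 0 to 206 CPM in the others. Ccnd2 also stood at 244.3 CPM in the oligodendrocytes of the KO intermediate library (31 cells, 25 UMIs), against 0 to 34.02 CPM in the others.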

How the results depend on the processing

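Of 1172 values of member log2 fold changes under the alternatives, 1098 kept their side of the threshold, 31 lost and 40 gained a call, and 3 reversed while called, among 34 that changed sign in all. The reversals were Ccnd2 between tumour and endothelial cells (1.50 with doublets removed and 1.78 without mural-rich cells) and Ccnd1 between tumour cells and OPCs (-0.14 with at least 10 cells per sum), and their cause was not tested. With at least 10 cells per sum only the WT early library kept an OPC sum. The values of Myc (1.18), Cdkn1a (0.57) and Ccnd2 (1.12) against OPCs in that setting, like that of Ccnd1, rest on the OPCs of that library alone. Counts of genes called moved by over 1.5 times as follows. Without a filter on low counts they were 7552 against macrophage-like cells (4858 as reported), 6127 against endothelial cells (4073), 472 between genotypes and 358 between stages (0 each), and 564, 207 and 45 between conditions in endothelial cells, oligodendrocytes and astrocytes (224, 59 and 8). DESeq2 gave 1962 between proliferation groups (3316), 14 in astrocytes, 67 between genotypes and 20 between stages. With at least 10 cells per sum there were 1283 against OPCs (3497) and 25 in astrocytes, and proliferation groups summed from thinned cells gave 1190. In endothelial cells the count was 115 with another tSNE seed, 68 with doublets removed and 62 without mural-rich cells, and between genotypes 2 with another seed, all genes or Leiden clustering. Leaving out each library in turn gave 0 to 402 genes in endothelial cells (0 without KO naive, 4 without WT naive, 127 without KO intermediate, 402 without WT early), 3 to 75 in oligodendrocytes (3 without KO naive, 27 without KO late) and 3 to 25 in astrocytes (13 to 25 without KO early, KO intermediate, KO late, WT late or WT naive). It gave 79 to 626 in microglia-like cells (538 as reported, 79 without KO naive, 126 without WT naive), 0 to 68 between genotypes (68 without KO early, 56 without WT early, 33 without WT intermediate) and 0 to 52 between stages (52 without KO late, 10 without KO early). No paired analysis by replicate number was possible because each genotype and stage had 1 library. Small classes of few cells limit what can be seen in OPCs, astrocytes and dendritic cell-like cells.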
